A study of Mus musculus with 12 samples.

Results

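The expression of 5 transcription factor genes of the mammalian clock was followed across all 12 libraries of the study: Nr1d1 and Nr1d2, which encode the nuclear receptors REV-ERBα and REV-ERBβ, and Dbp, Tef and Nfil3, which encode basic leucine zipper factors that bind D-box elements. They were taken by gene symbol, though earlier results of these data were known when they were chosen. All 5 of 5 were found among the 15720 gene identifiers of the expression table. They were also among the 11208 genes that entered the tests, for which a mean level of 0.5 FPKM or more was asked.

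The cells were EMS404, a mouse hepatic stellate cell line of C57Bl6 background, immortalised with SV40 and expressing human TLR4, and these properties are common to every group. Cells received a scrambled siRNA or an siRNA against Bmal1 (gene symbol Arntl, the partner of CLOCK), and 48 h later vehicle or 10 ng/mL TGFb for 24 h. Each of the 4 groups had 3 libraries, described as biological triplicates, but no label names separate cultures, so p-values here rest on a spread between libraries that may be technical. All RNA comes from 1 line at 1 time point, so level and phase of a rhythm cannot be told apart, nor, in bulk RNA, can fewer cells expressing a gene and less RNA per cell.

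In the clock, CLOCK and BMAL1 activate genes that carry E-boxes, among them those of the REV-ERBs and DBP. REV-ERBs in turn repress Bmal1 and Nfil3 at ROR elements, where ROR receptors activate. DBP, TEF and HLF (the PAR bZIP factors) activate from D-boxes, and NFIL3 (E4BP4) represses from the same sites, so the balance between them sets D-box output. Hepatic stellate cells store vitamin A in the liver sinusoid, and TGFb drives their change into matrix-producing myofibroblasts.

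Stretches around the RefSeq start sites show which of these elements the members hold there. Promoter windows from RefSeq (GRCm38.p6, the mm10 assembly) covered 250 bases before and 50 after each start, and 6 windows matched the 5 genes, with 1 each and 2 for Tef. Searched on both strands were the E-box CACGTG, the related AACGTG, the D-box TTATGNAA or TTACGTAA, and the ROR element core AGGTCA. The core was searched with and without a leading T (TAGGTCA, of which AGGTCA is a part). Of all 32851 windows of this length, CACGTG was in 7.15%, AACGTG in 4.68%, a D-box in 3.5%, TAGGTCA in 2.61% and AGGTCA in 16.3%. Capitals mark the match in each sequence, which is written 5′ to 3′ on the strand of the gene.
Nr1d1, chr11:98775378-98775627, minus strand: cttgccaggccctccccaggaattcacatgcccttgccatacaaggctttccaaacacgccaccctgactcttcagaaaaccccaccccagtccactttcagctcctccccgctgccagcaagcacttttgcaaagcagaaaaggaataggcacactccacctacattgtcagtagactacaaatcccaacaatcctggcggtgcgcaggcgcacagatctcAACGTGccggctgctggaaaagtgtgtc
Nr1d2, chr14:18239137-18239356, minus strand: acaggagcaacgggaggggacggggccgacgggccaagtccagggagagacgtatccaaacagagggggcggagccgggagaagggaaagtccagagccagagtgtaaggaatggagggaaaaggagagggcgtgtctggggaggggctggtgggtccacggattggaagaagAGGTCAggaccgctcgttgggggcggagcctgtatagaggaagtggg
Tef, first start, chr15:81802534-81802563, plus strand: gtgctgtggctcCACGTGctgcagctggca
Tef, second start, chr15:81811264-81811293, plus strand: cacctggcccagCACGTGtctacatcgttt
Nfil3, chr13:52981033-52981062, minus strand: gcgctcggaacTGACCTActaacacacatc
The Nr1d1 window held AACGTG starting 28 bases before the start site, and the Nr1d2 window held AGGTCA starting 77 bases before it. Both Tef windows held CACGTG, 127 and 138 bases before their start sites. The Nfil3 window held TAGGTCA on the opposite strand, where it reads TGACCTA on the strand of the gene, 12 bases before the start. The stretches shown for the first Tef start and for Nfil3 lie in annotated exons (30 of 30 bases in GENCODE M21, whose models of these genes begin further upstream), and the Nfil3 stretch runs 6 bases past the start, while the other 3 stretches hold 0 exon bases. The Dbp window matched none of these motifs, and no window of the 5 genes matched the D-box letters. These are matches of letters in short windows, and binding was not measured.

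Nr1d1 (ENSMUSG00000020889) lies on chromosome 11, minus strand, from 98767932 to 98775333, and shares 263 exon bases with Thra. Nr1d2 (ENSMUSG00000021775) lies on chromosome 14, minus strand, from 18204054 to 18239127, and Nfil3 (ENSMUSG00000056749) on chromosome 13, minus strand, from 52967209 to 52981073, both without exon overlap with another gene. Dbp (ENSMUSG00000059824), on chromosome 7, plus strand, from 45705088 to 45710203, shares 539 exon bases with Sphk2. Tef (ENSMUSG00000022389), on chromosome 15, plus strand, from 81802421 to 81826863, shares 193 with the antisense model Gm17597. No source used here says whether strand entered the counting, so reads from shared exon bases cannot be assigned.

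FPKM totals ran from 439057 to 477551 per library, with 13673 to 13975 genes above 0. Read depth is unknown. On the first principal component, which held 71% of the variance, the 6 vehicle libraries lay from -17.76 to -15.42 and the 3 libraries with scrambled siRNA and TGFb from 27.16 to 29.85. With Bmal1 siRNA and TGFb, replicates 1 and 3 lay at 12.99 and 8.4, but replicate 2 at -5.13, apart from them and toward vehicle. Results that rest on this library are therefore given with and without it. The siRNA target Arntl had a mean of 5.18 ± 0.26 FPKM in the scrambled vehicle group (SD, n = 3), 10.7 ± 0.185 with TGFb, 3.79 ± 0.171 with Bmal1 siRNA and vehicle, and 4.35 ± 0.603 with both. It was lower with Bmal1 siRNA under vehicle (log2 difference -0.37, limma adjusted p = 0.049) and under TGFb (log2 difference -1.13, adjusted p = 1.38e-06). The call under vehicle ended when any 1 library was left out other than Bmal1 TGFb replicates 1 and 2 (10 of 12 fits, adjusted p 0.0564 to 0.21), while the call under TGFb held in all 12. Of 14 stellate cell markers 12 were in the table, with Lrat and Reln not analysed here. The 12 summed to 4962 to 5340.5 FPKM with scrambled siRNA and vehicle and 6798 to 7163 with scrambled siRNA and TGFb. With Bmal1 siRNA they summed to 5338 to 5651 under vehicle and 6139 to 6426 under TGFb. Col1a1 (2716 to 4222 FPKM) made up most of each sum. Des lay between 0.52 and 1.23, and Lum and Tcf21 at or below 0.19. With scrambled siRNA and TGFb, 4 of 10 tested were called higher and 3 lower, where 16.4% and 29.1% of all tested genes were. Hepatocyte markers (5 of 8 in the table, mostly Ahsg under vehicle, Hnf4a at most 0.01) summed to 2.8 to 3.24 FPKM with scrambled siRNA and vehicle, 0.08 to 0.23 with scrambled siRNA and TGFb, 3.58 to 3.77 with Bmal1 siRNA and vehicle, and 0.32 to 2.39 with Bmal1 siRNA and TGFb. Cholangiocyte markers (4 of 4) summed in the same order of groups to 6.55 to 7.0, 2.29 to 4.89, 6.95 to 8.55 and 2.81 to 6.0. Leukocyte markers (4 of 8, nearly all Cd68) summed to 2.71 to 4.71 and endothelial markers (5 of 6, nearly all Tek) to 1.14 to 3.36. The stellate, hepatocyte and cholangiocyte sums moved with TGFb, and the part of these shifts in the results was not tested.

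Under vehicle, both REV-ERB genes were lower with Bmal1 siRNA than with scrambled siRNA. Nr1d1, the better known of the pair and a repressor of Bmal1 transcription, was at 7.05, 7.34 and 7.23 FPKM with scrambled siRNA and vehicle. With scrambled siRNA and TGFb it was at 8.56, 8.17 and 8.4 FPKM. With Bmal1 siRNA and vehicle it was at 4.73, 3.91 and 4.28, and with Bmal1 siRNA and TGFb at 7.24, 5.17 and 7.12 FPKM. The 3 libraries with Bmal1 siRNA and vehicle were thus below all 9 others, and replicate 2 of the last group was the lowest of the others. Under vehicle, Nr1d1 fell by 0.63 on the log2(FPKM + 1) scale with Bmal1 siRNA (SE 0.0966, limma adjusted p = 0.0253), from a mean of 7.21 ± 0.146 to 4.31 ± 0.411 FPKM (SD, n = 3), which dropped by 40.2%.

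Nr1d2, whose protein overlaps in function with REV-ERBα, was at 5.32, 6.95 and 6.36 FPKM with scrambled siRNA and vehicle and at 8.15, 7.03 and 7.07 FPKM with scrambled siRNA and TGFb. It was at 4.11, 4.58 and 3.79 FPKM with Bmal1 siRNA and vehicle and at 6.84, 5.74 and 6.67 FPKM with Bmal1 siRNA and TGFb. As for Nr1d1, the libraries with Bmal1 siRNA and vehicle lay below all others. Under vehicle Nr1d2 fell by 0.48 with Bmal1 siRNA (SE 0.0951, adjusted p = 0.0445), and its mean FPKM dropped by 33.0%. These 2 of 5 members were the ones called in this comparison, both lower, where 0.660% of all tested genes were called, 0.294% higher and 0.366% lower. Both calls are fragile. Leaving out 1 library ended the Nr1d1 call in 4 of 12 cases (scrambled vehicle replicate 1 or 3, Bmal1 vehicle replicate 2 or 3, adjusted p 0.0765 to 0.162) and the Nr1d2 call in 9 of 12 (all but scrambled TGFb replicate 1 and Bmal1 siRNA with TGFb replicates 1 and 2, adjusted p 0.059 to 0.193), while the fold changes stayed negative.

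The other 3 members showed no difference that passed the test under vehicle. Dbp, a direct E-box target in liver, differed by a log2 of -0.0007 with a 95% interval of -0.33 to 0.33. Tef differed by -0.13 (interval -0.36 to 0.09) and Nfil3 by 0.06 (interval -0.07 to 0.20). The intervals bound Nfil3 more closely than Dbp.

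With the scrambled siRNA, neither REV-ERB gene changed with TGFb by an amount that passed the test. Nr1d1 was 16.2% higher in mean FPKM (log2 difference 0.19, 95% interval -0.02 to 0.40, adjusted p = 0.123) and Nr1d2 19.4% higher (log2 difference 0.23, interval 0.02 to 0.43, adjusted p = 0.0673). The libraries of the groups did not overlap for either gene, and how often this held over all tested genes was not counted. Without replicate 2 of Bmal1 siRNA and TGFb, a library outside this contrast, the same differences had adjusted p = 0.0205 for Nr1d1 (SE 0.0617 in place of 0.0966) and 0.0496 for Nr1d2. Without scrambled vehicle replicate 2, Nr1d2 differed by 0.30 (adjusted p = 0.0313).

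The D-box factors moved in opposite directions with TGFb. Dbp was at 5.48, 5.06 and 5.95 FPKM with scrambled siRNA and vehicle and at 1.87, 2.55 and 2.54 FPKM with scrambled siRNA and TGFb. The groups did not overlap, and Dbp fell by 0.97 on the log2 scale (SE 0.151, adjusted p = 0.000166), and its mean FPKM dropped by 57.8%. Tef, the PAR bZIP factor with the highest level in these cells, was at 17.46, 20.02 and 19.52 FPKM under vehicle and at 11.47, 12.07 and 12.31 FPKM under TGFb. Again no library of one group reached the other, and Tef fell by 0.63 (SE 0.105, adjusted p = 0.000322), and its mean FPKM dropped by 37.1%.

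Nfil3, the D-box repressor, rose. It was at 17.75, 16.3 and 15.44 FPKM with scrambled siRNA and vehicle and at 33.07, 32.8 and 32.11 FPKM with scrambled siRNA and TGFb, which is 1.98 times the vehicle mean (log2 difference 0.95, SE 0.0622, adjusted p = 1.18e-07). In all, 3 of 5 members were called with TGFb and scrambled siRNA, 1 higher and 2 lower, where 45.5% of tested genes were called, 16.4% higher and 29.1% lower. The share of the members is not far from the background of this comparison. Scaling moved the split of calls over all genes from 1841 higher and 3264 lower to 2465 and 2553 with median-of-ratios scaling and to 2382 and 2636 with quantile normalization. The calls of Dbp, Tef and Nfil3 held under both, and Nr1d2 passed the test under both (adjusted p = 0.0295 and 0.0358).

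**Figure D1:**
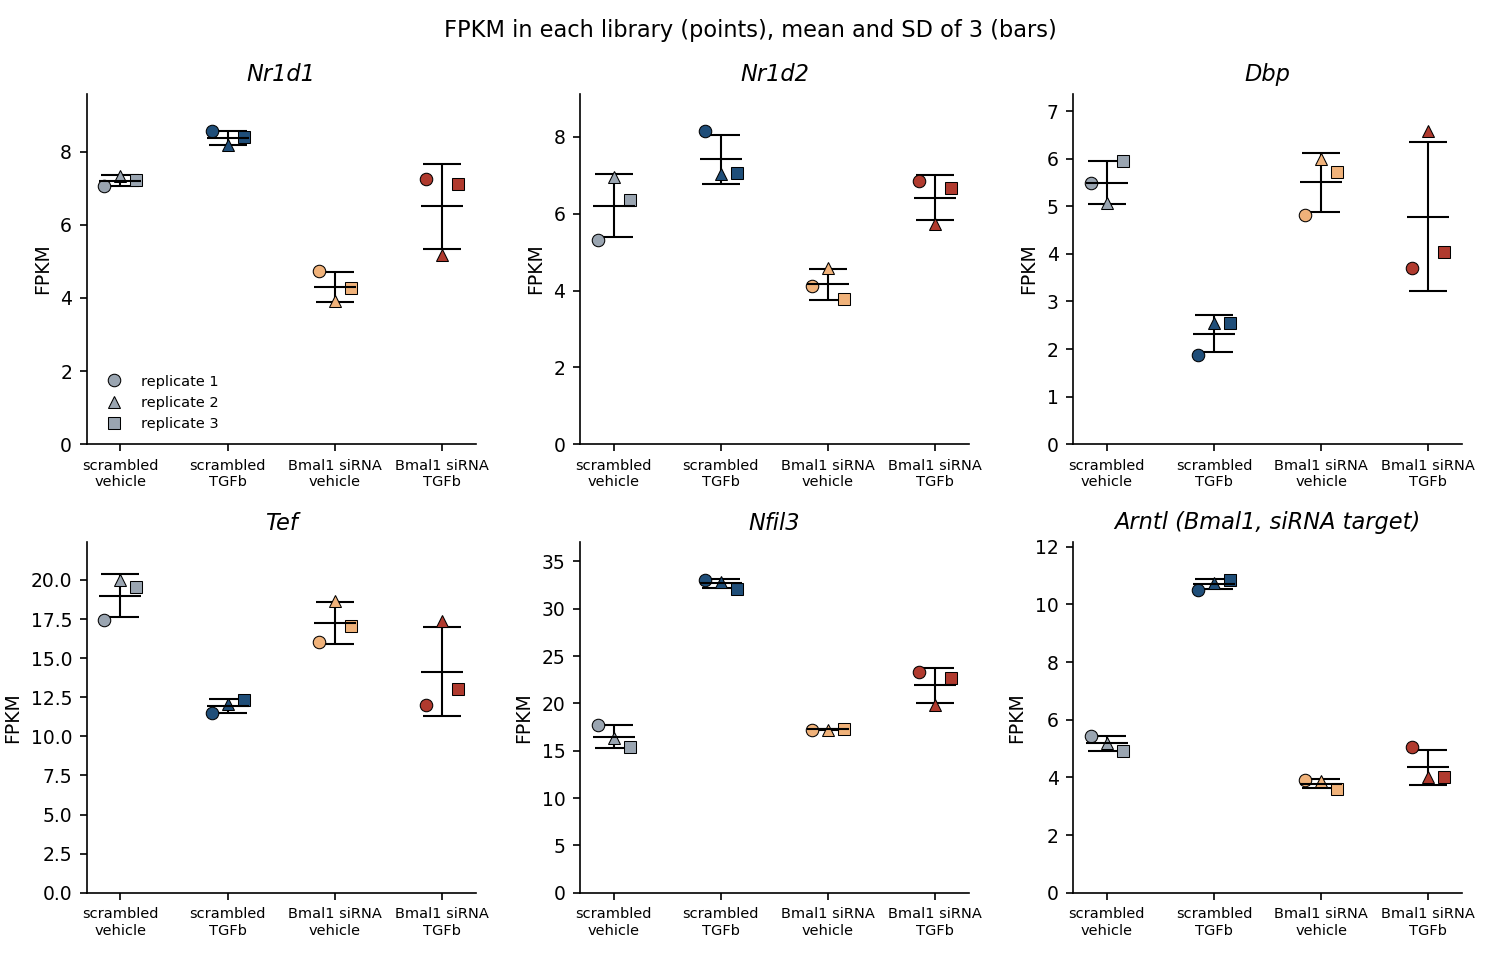
FPKM (vertical axis, from 0) of Nr1d1, Nr1d2, Dbp, Tef, Nfil3 and the siRNA target Arntl in the 4 groups, with 1 point per library (circle, triangle and square for replicates 1, 2 and 3) and bars for the mean and SD of 3. Nfil3 lies between 32.11 and 33.07 with scrambled siRNA and TGFb, above all other groups, and Dbp in the same group between 1.87 and 2.55, below them.

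After Bmal1 siRNA both REV-ERB genes and Nfil3 rose with TGFb. Nr1d1 rose by a log2 of 0.49 (SE 0.0966, adjusted p = 0.00351), from 4.31 ± 0.411 to 6.51 ± 1.16 FPKM (SD, n = 3), and Nr1d2 by 0.52 (SE 0.0951, adjusted p = 0.00224), from 4.16 ± 0.397 to 6.42 ± 0.592 FPKM. For both, the TGFb libraries lay above all vehicle libraries with Bmal1 siRNA. These means lay below those with scrambled siRNA and TGFb, 8.38 ± 0.196 FPKM for Nr1d1 and 7.42 ± 0.635 FPKM for Nr1d2.

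Nfil3 rose less than with the scrambled siRNA. It was at 17.21, 17.23 and 17.32 FPKM with Bmal1 siRNA and vehicle and at 23.32, 19.84 and 22.63 FPKM with Bmal1 siRNA and TGFb (log2 difference 0.33, SE 0.0622, adjusted p = 0.00295). Dbp was at 4.81, 5.99 and 5.71 FPKM under vehicle and at 3.71, 6.58 and 4.05 FPKM under TGFb, and the groups overlapped because replicate 2 was the highest of all 12 libraries (log2 difference -0.20, interval -0.53 to 0.13, adjusted p = 0.395). Tef was at 16.01, 18.66 and 17.07 FPKM under vehicle and at 11.99, 17.37 and 13.03 FPKM under TGFb, where replicate 2 again lay within the vehicle range (log2 difference -0.28, interval -0.51 to -0.06, adjusted p = 0.078). In this comparison 3 of 5 members were called, all higher, where 19.0% of tested genes were called, 8.90% higher and 10.1% lower.

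In each of the 5 genes, replicate 2 of Bmal1 siRNA and TGFb was the library of its group nearest to the vehicle mean. Without it all 5 members were called for TGFb with Bmal1 siRNA, where 29.1% of tested genes were called. Nr1d1 then rose by 0.63 (adjusted p = 2.09e-05), Nr1d2 by 0.59 (adjusted p = 0.000665) and Nfil3 by 0.39 (adjusted p = 0.000176). Dbp fell by 0.41 (adjusted p = 0.0121) and Tef by 0.43 (adjusted p = 0.00078). The fit without it also called all 5 for TGFb with scrambled siRNA, where 48.8% of genes were called.

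Under TGFb, Bmal1 siRNA went with lower Nfil3 and Nr1d1 and higher Dbp. With Bmal1 siRNA in place of scrambled siRNA, mean Nfil3 dropped by 32.9% (21.9 ± 1.84 against 32.7 ± 0.495 FPKM, log2 difference -0.56, SE 0.0622, adjusted p = 5.56e-05). Dbp was 106.0% higher (4.78 ± 1.57 against 2.32 ± 0.39 FPKM, log2 difference 0.77, SE 0.151, adjusted p = 0.00313). Mean Nr1d1 dropped by 22.3% (log2 difference -0.33, SE 0.0966, adjusted p = 0.0257). For all 3 the groups did not overlap, and the same held for Nr1d2, which was not called. The share of such genes over all tested genes was not counted. Nr1d2 differed by -0.18 (interval -0.39 to 0.02, adjusted p = 0.181) and Tef by 0.21 (interval -0.02 to 0.44, adjusted p = 0.168), and neither passed the test. Without Bmal1 TGFb replicate 1, Tef differed by 0.31 (adjusted p = 0.0412), and without replicate 2 of that group by 0.06 (adjusted p = 0.62).

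These 3 of 5 calls, 1 higher and 2 lower, compare with 23.2% of tested genes called, 16.0% higher and 7.16% lower. The split over all genes turned with scaling, from 1794 higher and 802 lower to 997 and 1152 with median-of-ratios scaling and 1183 and 1036 with quantile normalization, and the 3 calls held under both. Without replicate 2 of Bmal1 siRNA and TGFb, 16.6% of genes were called. Dbp then differed by 0.56 (adjusted p = 0.00353) and Nfil3 by -0.49 (adjusted p = 6.82e-05), while the Nr1d1 call ended (log2 difference -0.20, adjusted p = 0.0704). It also ended without scrambled TGFb replicate 1 (adjusted p = 0.0696) or 3 (adjusted p = 0.0664), without a filter (adjusted p = 0.0527) and with only the groups compared (adjusted p = 0.0841).

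The difference between both TGFb responses was tested as the interaction of siRNA and TGFb. The rise of Nfil3 was smaller by a log2 of 0.62 after Bmal1 siRNA (interaction -0.62, SE 0.0879, adjusted p = 0.000638), and this call held in every alternative run. The fall of Dbp was smaller by 0.77 (interaction 0.77, SE 0.214, adjusted p = 0.0295). The Dbp call ended when 1 of 5 libraries was left out (scrambled vehicle replicate 1 or 3, scrambled TGFb replicate 1, Bmal1 vehicle replicate 1 or 3, adjusted p 0.0537 to 0.0694). Interactions of Nr1d1 (0.30, adjusted p = 0.164), Nr1d2 (0.30, adjusted p = 0.162) and Tef (0.34, adjusted p = 0.146) did not pass, so a different TGFb response of these 3 was not shown. Without Bmal1 TGFb replicate 1 the Tef interaction was 0.44 (adjusted p = 0.0438), and without replicate 2 of that group 0.19 (adjusted p = 0.2135).

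The 2 of 5 interaction calls, 1 higher and 1 lower, stand beside 14.4% of tested genes called, 8.86% higher and 5.52% lower. Median-of-ratios scaling changed the split over all genes from 993 higher and 619 lower to 577 and 788, and quantile normalization to 702 and 718. Without replicate 2 of Bmal1 siRNA and TGFb, where 14.3% of genes were called, Nr1d1 passed (interaction 0.43, adjusted p = 0.00845), as did Dbp (0.56, adjusted p = 0.0218) and Nfil3 (-0.55, adjusted p = 0.000411). Under vehicle the same fit called 4.22% of genes, Nr1d1 (adjusted p = 0.000608) and Nr1d2 (adjusted p = 0.0216) among them.

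**Figure D2:**
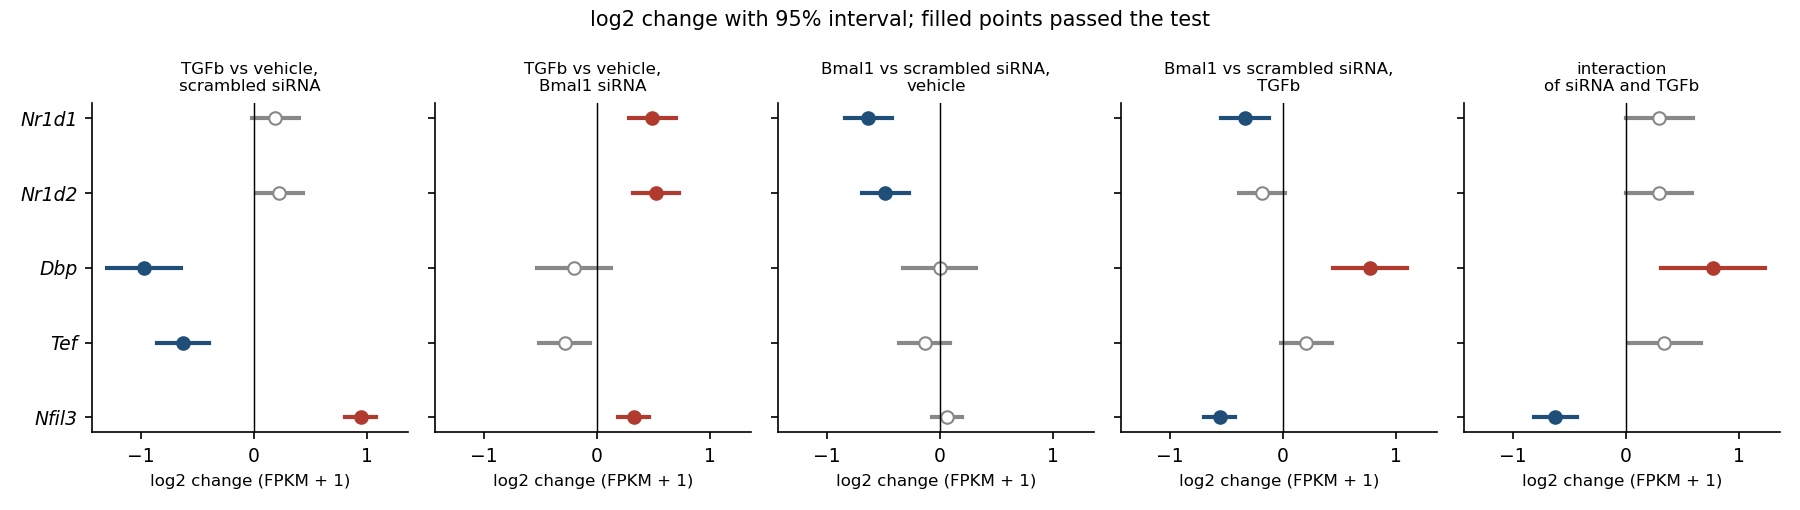
Log2 change on the log2(FPKM + 1) scale (horizontal axis) of each of the 5 genes in the 4 comparisons and the interaction, with lines for the 95% interval and filled points where the limma adjusted p was under 0.05 (red higher, blue lower). Under vehicle, Nr1d1 at -0.63 and Nr1d2 at -0.48 are the filled points, and in the interaction Dbp at 0.77 and Nfil3 at -0.62.

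Because the D-box activators and NFIL3 bind the same element, their transcript ratio within a library was taken as a description that does not depend on how libraries were scaled. The Dbp to Nfil3 ratio of FPKM ranged from 0.309 to 0.385 with scrambled siRNA and vehicle and from 0.0565 to 0.0791 with scrambled siRNA and TGFb. The mean log2 ratio was lower by 2.24 with TGFb, a 4.74-fold difference, and no library of one group reached the other. With Bmal1 siRNA the ratio ranged from 0.28 to 0.348 under vehicle. Under TGFb it was 0.159 and 0.179 in replicates 1 and 3 and 0.332 in replicate 2, a 1.5-fold difference of the group means from vehicle, with overlap. Between siRNAs under TGFb the ratio differed 3.01-fold, higher with Bmal1 siRNA and without overlap.

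The Tef to Nfil3 ratio followed the same order of groups. Its mean was 1.16 ± 0.153 with scrambled siRNA and vehicle and 0.366 ± 0.0183 with scrambled siRNA and TGFb (SD, n = 3), a 3.15-fold difference in mean log2 ratio. With Bmal1 siRNA it was 0.9996 ± 0.0773 under vehicle and 0.655 ± 0.193 under TGFb, a 1.56-fold difference. Tef thus exceeded Nfil3 in 2 of 3 scrambled vehicle libraries and in none with TGFb. The Nr1d1 to Nr1d2 ratio stayed between group means of 1.01 and 1.17, and its group means differed by at most 1.13-fold in the 4 comparisons, less than the range of single libraries (0.854 to 1.33).

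**Figure D3:**
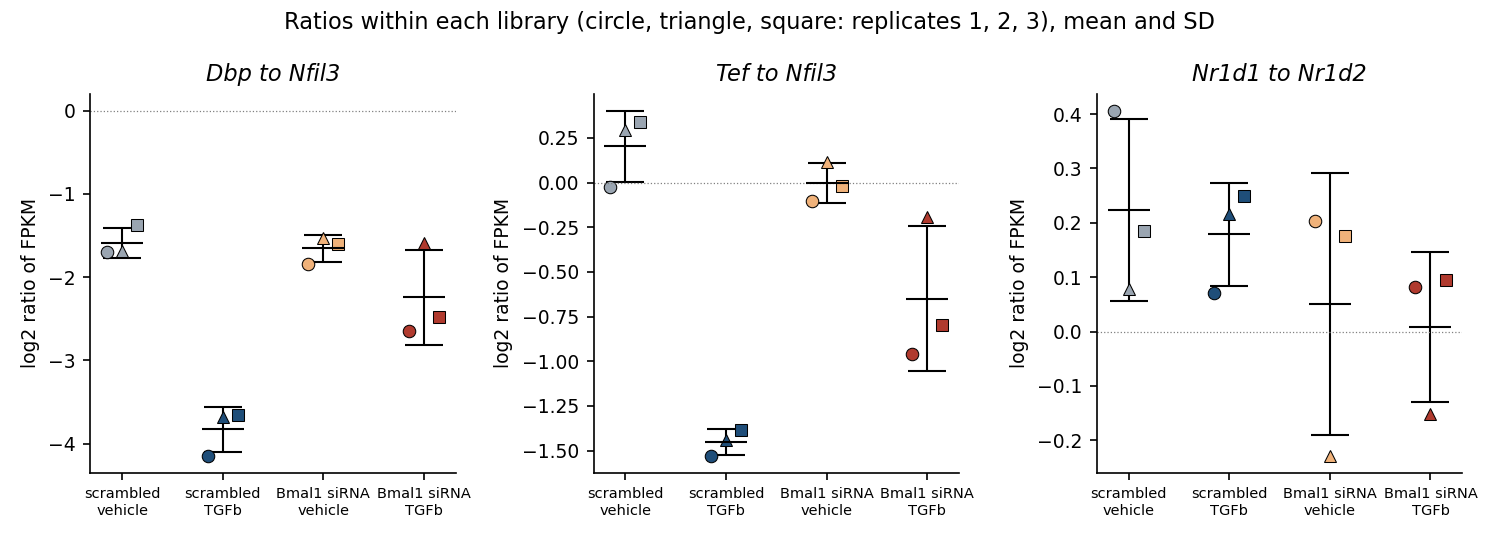
Log2 ratio of FPKM within each library (vertical axis) for Dbp to Nfil3, Tef to Nfil3 and Nr1d1 to Nr1d2 in the 4 groups, with 1 point per library (circle, triangle and square for replicates 1, 2 and 3) and bars for the mean and SD. The first ratio has a mean log2 of -3.83 with scrambled siRNA and TGFb and of -1.59 with scrambled siRNA and vehicle, and the triangle of Bmal1 siRNA and TGFb lies at the vehicle level.

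The order of the 5 levels per transcript length changed between groups. With scrambled siRNA and vehicle Tef and Nfil3 led and overlapped, followed by Nr1d1, Nr1d2 and Dbp, of which the last 2 overlapped. With scrambled siRNA and TGFb the order was Nfil3, Tef, Nr1d1, Nr1d2 and Dbp, with no overlap between neighbours. With Bmal1 siRNA and vehicle Dbp stood above both REV-ERB genes, which overlapped each other, and Nfil3 and Tef overlapped at the top. With Bmal1 siRNA and TGFb Nfil3 and Tef led without overlap, and Nr1d1, Nr1d2 and Dbp overlapped. Among tested genes, whose median level was 12.9 FPKM, the mean over 12 libraries put Nfil3 at the percentile 65.8, Tef at 55.5, Nr1d1 at 31.4, Nr1d2 at 29.3 and Dbp at 23.4.

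Among relatives outside the 5 genes, HLF is the remaining PAR bZIP factor. Hlf was at 0.84, 0.91 and 0.81 FPKM with scrambled siRNA and vehicle and at 0.16, 0.04 and 0.04 with scrambled siRNA and TGFb. With Bmal1 siRNA it was at 0.47, 0.43 and 0.46 FPKM under vehicle and at 0.23, 0.19 and 0.22 under TGFb. No group overlapped another. These levels fall below the filter, so Hlf was tested in the fit without a filter over 15720 genes, where it was lower with TGFb (log2 difference -0.78 with scrambled siRNA, adjusted p = 6.95e-07, and -0.26 with Bmal1 siRNA, adjusted p = 0.00285). With Bmal1 siRNA it was lower under vehicle (-0.35, adjusted p = 0.0132) and higher under TGFb (0.17, adjusted p = 0.0182), and its interaction was 0.52 (adjusted p = 0.000669). That fit called 34.0%, 13.4%, 0.0445% and 15.3% of genes in these 4 comparisons and 8.85% in the interaction. Levels this low rest on few fragments, and the log2(FPKM + 1) scale shrinks their differences. Rora, the gene of a ROR receptor that shares the REV-ERB binding element, lay between 0.15 and 0.51 FPKM in all libraries and was below the filter.

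The partners in exon overlap did not follow the members throughout. Thra, which encodes a thyroid hormone receptor and shares exon bases with Nr1d1, was at 101.6 FPKM with scrambled siRNA and vehicle and 60.6 with TGFb (log2 difference -0.74, adjusted p = 3.22e-05), while Nr1d1 was not lower. Sphk2, a sphingosine kinase gene that shares exon bases with Dbp, was at 27.4 and 21.2 FPKM in the same groups (log2 difference -0.36, adjusted p = 0.00168), and its interaction was 0.44 (adjusted p = 0.0163). Both values were larger in size for Dbp (-0.97 and 0.77), and the part of shared reads was not tested.

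The list for the E-box limb of the clock had 11 tested genes. It holds activators, such as Arntl and Clock, beside repressors, such as Bhlhe40. Its counts therefore give no direction of the drive on the REV-ERB and PAR bZIP genes. With scrambled siRNA and TGFb 7 rose and 3 fell (median log2 difference 0.305, against -0.049 over all tested genes, of which 16.4% rose and 29.1% fell). With either other scaling 7 rose and 2 fell. Bhlhe40, which encodes the E-box repressor DEC1, rose by 1.42 (adjusted p = 3.89e-06), Arntl by 0.92 (adjusted p = 6.4e-07), and Per3 fell by 0.35 (adjusted p = 0.00951). After Bmal1 siRNA none rose with TGFb and 4 fell (8.90% and 10.1% of all tested genes), namely Per1, Cry2, Ciart and Per2, the last by 0.43 (adjusted p = 0.00106). The Cry2 call (log2 difference -0.22, adjusted p = 0.0498) ended with either other scaling (adjusted p = 0.0507 and 0.0753) and without any 1 library other than scrambled vehicle replicate 1 (adjusted p up to 0.204). The Ciart call (log2 difference -0.39) ended without any 1 library other than scrambled TGFb replicates 1 and 2, Bmal1 vehicle replicate 1 and Bmal1 TGFb replicate 2 (adjusted p up to 0.199). Without replicate 2 of Bmal1 siRNA and TGFb, 1 rose (Cry1) and 5 fell (Per1, Per2, Per3, Ciart and Bhlhe40). Under vehicle Arntl was called between siRNAs (0.660% of all tested genes), and without that library (4.22%) Bhlhe40 and Cry2 were called too, both higher with Bmal1 siRNA. Under TGFb 4 were lower with Bmal1 siRNA (7.16% of all tested genes), namely Arntl, Ciart, Bhlhe40 and Bhlhe41. With either other scaling 5 were lower. The same 4 were also called in the interaction, all lower (5.52% of all tested genes). The Ciart call under TGFb (log2 difference -0.41, adjusted p = 0.0332) ended without scrambled TGFb replicate 2 or 3 or any 1 replicate of Bmal1 siRNA and TGFb (adjusted p 0.0517 to 0.122).

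REV-ERB proteins repress through a corepressor complex that holds NCOR1 and the histone deacetylase HDAC3. Of 5 genes of the complex that were described, Hdac3 was lower by -0.18 on the log2 scale with scrambled siRNA and TGFb, and higher by 0.20 with Bmal1 siRNA than with scrambled siRNA under TGFb (adjusted p = 0.0119 and 0.0154), calls that ended with median-of-ratios scaling (adjusted p = 0.0679 and 0.0841). The second also ended without scrambled TGFb replicate 3 or Bmal1 TGFb replicate 2 (adjusted p = 0.0566 and 0.0547). Ncor1, Tbl1x, Tbl1xr1 and Gps2 passed the test in no comparison, and none of the 5 in the interaction. Tbl1xr1 was lower with TGFb and Bmal1 siRNA without replicate 2 of that group (log2 difference -0.23, adjusted p = 0.0215) and with array weights (-0.26, adjusted p = 0.000861).

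Of 5 genes for turnover of the REV-ERB proteins, 3 rose with scrambled siRNA and TGFb and none fell, where 16.4% of all tested genes rose and 29.1% fell. Fbxw7, the substrate adaptor of a ubiquitin ligase that marks REV-ERBα for degradation, was at 1.65, 2.19 and 2.13 FPKM under vehicle and at 6.47, 6.19 and 6.33 with TGFb (log2 difference 1.30, adjusted p = 2.42e-07). With Bmal1 siRNA it was at 2.19, 2.3 and 2.12 FPKM under vehicle and at 3.66, 2.76 and 2.71 with TGFb (log2 difference 0.33, adjusted p = 0.0265). The latter call ended without any 1 Bmal1 vehicle replicate or Bmal1 TGFb replicate 1 (adjusted p 0.0586 to 0.117). The TGFb groups with either siRNA did not overlap, and the interaction was -0.97 (adjusted p = 0.00049). Siah2, a ubiquitin ligase with the same substrate, rose by 0.35 with scrambled siRNA (adjusted p = 0.000659), with an interaction of -0.34 (adjusted p = 0.026) that ended without scrambled vehicle replicate 2 or 3, scrambled TGFb replicate 3 or any 1 Bmal1 vehicle replicate (adjusted p 0.0519 to 0.0663). Gsk3b, a kinase described as stabilising REV-ERBα, rose by 0.24 (adjusted p = 0.0381), a call that ended without a filter (adjusted p = 0.065), with only the groups compared (adjusted p = 0.0645) and without scrambled vehicle replicate 1, scrambled TGFb replicate 1 or 3, or Bmal1 vehicle replicate 3 (adjusted p 0.0505 to 0.162). Protein was not measured.

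Haem is the ligand of the REV-ERBs, and 8 of 12 genes of its synthesis and breakdown fell with scrambled siRNA and TGFb while none rose (median log2 difference -0.335), beside 29.1% of all tested genes that fell and 16.4% that rose. The same 8 fell and Cpox rose without replicate 2 of Bmal1 siRNA and TGFb. Alas1, the rate-limiting enzyme of haem synthesis and a described D-box target, fell by 0.72 (adjusted p = 1.63e-05), from 20.6 ± 1.63 to 12.1 ± 1.33 FPKM (SD, n = 3). Ppox fell by 0.53, Alad by 0.51 and Blvrb by 0.41, the last a call that ended without scrambled vehicle replicate 1 or 3 or scrambled TGFb replicate 1 (adjusted p 0.0515 to 0.0769). With median-of-ratios scaling 7 fell. After Bmal1 siRNA 4 fell and none rose with TGFb (10.1% and 8.90% of all tested genes), and without replicate 2 of Bmal1 siRNA and TGFb 6 fell. Of the 4, the Fech call ended without any 1 library other than scrambled vehicle replicate 1 and Bmal1 TGFb replicate 2 (adjusted p 0.0531 to 0.19), and the Ppox call without any 1 Bmal1 vehicle replicate or Bmal1 TGFb replicate 1 or 3 (adjusted p 0.0755 to 0.144). Alad fell by 0.31 (adjusted p = 0.0034), Hmox1, the haem oxygenase, by 0.21 (adjusted p = 0.00862), and Alas1 differed by -0.21 (adjusted p = 0.107). Between siRNAs under TGFb 5 were higher and 1 lower, beside 16.0% and 7.16% of all tested genes. This became 2 and 1 with median-of-ratios scaling and 1 and 1 without replicate 2 of Bmal1 siRNA and TGFb. In the interaction Alas1 (0.51, adjusted p = 0.014), Urod (0.36, adjusted p = 0.00903) and Ppox (0.31, adjusted p = 0.0366) were higher, beside 8.86% of all tested genes. Ppox missed the threshold with either other scaling (adjusted p = 0.0828 and 0.0655) and when 1 of 8 libraries was left out (all but scrambled vehicle replicate 2, scrambled TGFb replicate 3 and Bmal1 TGFb replicates 1 and 3, adjusted p 0.0555 to 0.0861). Under vehicle none of the 12 was called.

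**Figure D4:**
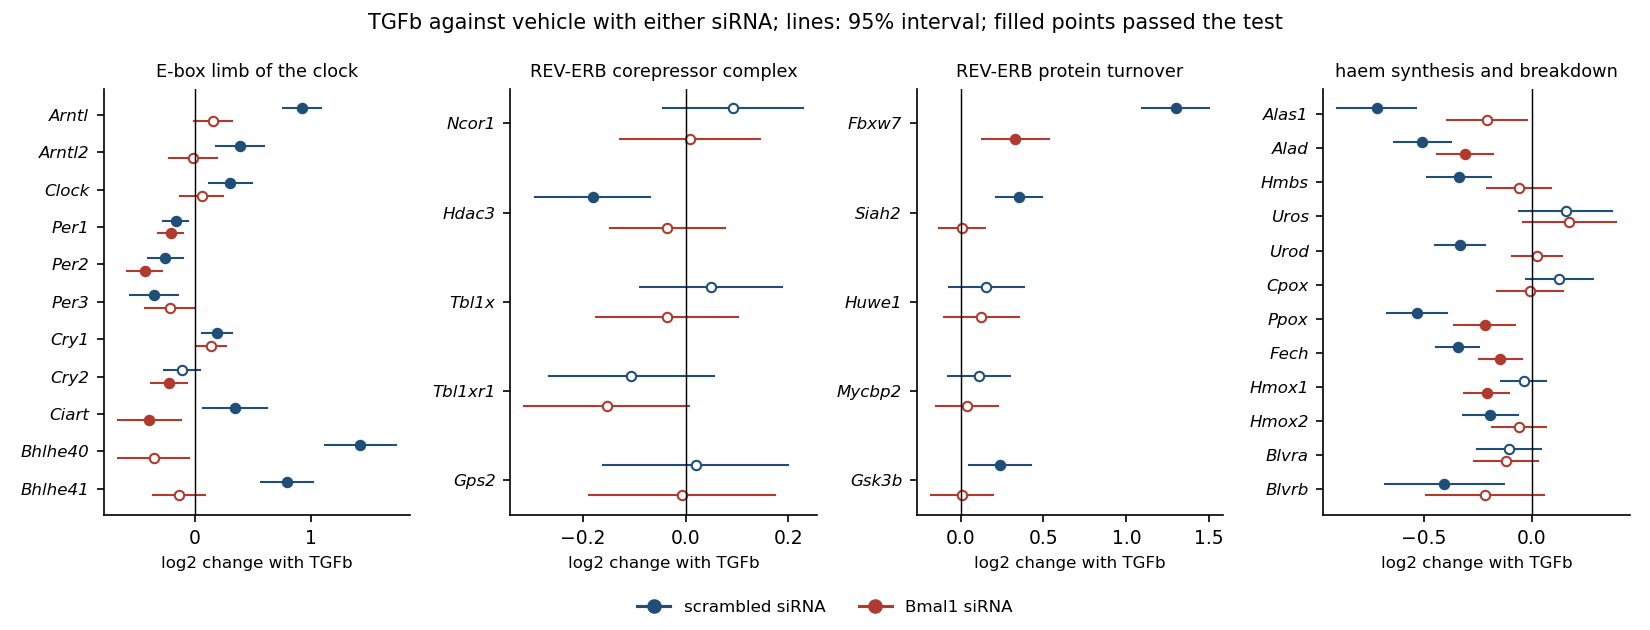
Log2 change with TGFb on the log2(FPKM + 1) scale (horizontal axis) for tested genes of 4 lists, in blue with scrambled siRNA and in red with Bmal1 siRNA, with lines for the 95% interval and filled points where the limma adjusted p was under 0.05. Fbxw7 lies at 1.30 with scrambled siRNA and 0.33 with Bmal1 siRNA, and Alas1 at -0.72 and -0.21.

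Genes described as repressed by REV-ERB moved in both directions. Of 9 tested, Nfil3 included, 5 rose and 1 fell with scrambled siRNA and TGFb (median log2 difference 0.188), where 16.4% of all tested genes rose and 29.1% fell. Mmp9, which encodes a matrix metalloproteinase, rose by 1.65 (adjusted p = 1.09e-07). The gene that fell was Insig2, which encodes a regulator of sterol synthesis (log2 difference -0.33, adjusted p = 0.00105). After Bmal1 siRNA 3 rose with TGFb and 0 fell (8.90% and 10.1% of all tested genes). They were Nfil3, Mmp9 (0.50, adjusted p = 0.00586) and Lpl, the gene of lipoprotein lipase (0.26, adjusted p = 0.0356). The call of Lpl ended without any 1 of the Bmal1 vehicle replicates, or without Bmal1 TGFb replicate 1 or 3 (adjusted p 0.0572 to 0.109), and with a pseudocount of 0.1 or no filter (adjusted p = 0.0509 and 0.0571). Under vehicle, where both REV-ERB genes were lower with Bmal1 siRNA, the 1 gene called was Arntl, which the siRNA targets, and it was lower. Mmp9 was called too, higher with Bmal1 siRNA, without replicate 2 of Bmal1 siRNA and TGFb. Under TGFb 2 were higher and 3 lower with Bmal1 siRNA, beside 16.0% and 7.16% of all tested genes, and 2 and 4 with either other scaling.

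Genes described as targets of D-box or PAR bZIP factors moved in both directions with TGFb. Of 9 tested, which include Nr1d1 and Nr1d2, 6 fell and 1 rose with scrambled siRNA (median log2 difference -0.256), and this became 5 and 2 with either other scaling, beside 29.1% of all tested genes that fell and 16.4% that rose. Without replicate 2 of Bmal1 siRNA and TGFb 6 fell and 3 rose, Nr1d1 and Nr1d2 now among them. Pdxk, which makes the active form of vitamin B6, fell by 0.38 (adjusted p = 5.84e-05), and Por, the reductase that serves P450 enzymes, by 0.27 (adjusted p = 0.000335). Per1, Per2, Per3 and Alas1 also fell, and Cry1 rose. After Bmal1 siRNA, Nr1d1 and Nr1d2 rose with TGFb, and Per1, Per2 and Por fell, where 8.90% of all tested genes rose and 10.1% fell. Leaving out replicate 2 of Bmal1 siRNA and TGFb gave 3 that rose and 5 that fell. In the interaction Alas1 and Pdxk (0.34, adjusted p = 0.00965) were higher and none lower, beside 8.86% and 5.52% of all tested genes. Nr1d1 joined them in the fit without replicate 2 of Bmal1 siRNA and TGFb.

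The genes whose levels ran most alike with each member over the 12 libraries were ranked by Pearson correlation of log2(FPKM + 1) among 8256 or 8257 other protein-coding genes whose mean reached 5 FPKM. The libraries form 4 groups, so these values mostly describe shared group differences, and no test was made. For Nfil3 they were Krt14 (r = 0.994, Spearman 0.923), Map6 (0.992, 0.972) and Itga5 (0.992, 0.972). Krt14, a keratin, was at 15.2 FPKM with scrambled siRNA and vehicle, 149 with TGFb, 20.1 with Bmal1 siRNA and vehicle and 38.6 with both. For Dbp they were Cd34 (0.988, 0.944), Atraid (0.984, 0.965) and Gaa (0.982, 0.916), and for Tef Pkdcc (0.986, 0.951), Atp6v0d1 (0.971, 0.937) and Psap (0.968, 0.895). Cd34, a surface sialomucin, was at 218.5 FPKM, 131.1, 214.0 and 191.8 in the same order of groups.

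Many genes ran as closely with these 3 members, since the 100th in order still reached 0.967 for Nfil3, 0.949 for Dbp and 0.939 for Tef. For the REV-ERB genes the list fell off faster. Nr1d1 ran with Med8 (0.95, 0.839), Gtse1 (0.943, 0.881) and Csnk1e (0.941, 0.895), and the 100th gene reached 0.85. Nr1d2 ran with Pofut1 (0.949, 0.944), Med8 (0.916, 0.86) and Nr1d1 itself (0.904, 0.965), and the 100th reached 0.803. Csnk1e, a casein kinase gene, was at 52.8 ± 2.92, 59.6 ± 1.02, 45.6 ± 1.89 and 52.2 ± 3.61 FPKM in the same order of groups (SD, n = 3).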

How the data were processed

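Total RNA of 12 EMS404 samples was sequenced, from libraries built at BGI, per the labels. Per the labels' protocols, extraction used 1 of 2 kits, and samples with an RNA integrity below 6.0 were not sequenced. The authors deposited expression as FPKM (fragments per kilobase, scaled to library size), per the file headers. The submitters' processing notes name the tools Bowtie2 2.2.5, DESeq2, HISAT2 2.0.4 and RSEM and the build mm10, without their roles. No source used here gives depth or strand use, so counting error is unknown, and an increase of a few abundant genes lowers all others.

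Groups came from sample titles. Of 16290 lines 555 had no identifier (1.304% to 1.464% of a library's FPKM), and for 15 identifiers listed more than once only the line of higher mean was kept. GENCODE M21 named 15694 of 15720 identifiers. Values were tested as log2(FPKM + 1), which understates changes of low genes, with limma 3.58.1 in R 4.3.3 (trended, two-sided, group means over all 12 libraries, 8 residual and 5 prior degrees of freedom) for 11208 genes whose mean reached 0.5 FPKM. Calls were made at an adjusted p under 0.05 (Benjamini-Hochberg over all tested genes). Whether groups overlapped was described for members and list genes only, without its share over all tested genes. The fit was tested on simulated data. The design assumed RPKM or FPKM, which take the same test.

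Members and lists were chosen with earlier results of these data known, so a list's count is a description. Some list genes are not reported here and are left out of the list counts. Named were the 5 members, Arntl, genes that share exon bases with a member, up to 4 list genes per comparison with the largest change among those called, or up to 2 with the smallest p where none was called, and the 3 genes most like each member. Other list genes named were chosen after their values were seen. Alternatives were other pseudocounts, filters, scalings, variance models, a replicate block, array weights, only the groups compared and each library left out.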

Additional observations from a re-analysis of the deposited data

Results flagged for a closer look

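The TGFb response differed between siRNAs, by the interaction term of the limma fit (adjusted p under 0.05), for 16 genes named here, and the value given for each is the interaction on the log2(FPKM + 1) scale. List genes were mostly named because they were called, so the count of 16 follows from the naming rule. Over all tested genes 14.4% were called, and 8.85% in the fit without a filter used for Hlf. Of the members, the genes called were Nfil3 (-0.62) and Dbp (0.77). Of the E-box limb they were Bhlhe40 (-1.78), Bhlhe41 (-0.93), Arntl (-0.77), the gene targeted by the siRNA, and Ciart (-0.73). Of the genes for REV-ERB protein turnover they were Fbxw7 (-0.97) and Siah2 (-0.34). Of genes described as REV-ERB repressed they were Mmp9 (-1.15) and, with the opposite sign, Lpl (0.43), which encodes lipoprotein lipase. The latter missed the threshold without scrambled vehicle replicate 3 or Bmal1 vehicle replicate 2 or 3 (adjusted p 0.0525 to 0.0568). Of the haem genes they were Alas1 (0.51), Urod (0.36) and Ppox (0.31). Pdxk (0.34), described as a PAR bZIP target, and Sphk2 (0.44), which shares exon bases with Dbp, passed too. Hlf, the PAR bZIP gene below the filter, had 0.52 in the fit without a filter.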

How the results depend on the processing

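Of 570 recomputed values for the 25 combinations of member and comparison, 520 kept direction and side of the threshold, 27 lost the call, 19 gained one and 4 changed sign, and 12 of the 25 kept both in every alternative. The sign changes were all of Dbp between siRNAs under vehicle, a difference near 0: 0.0001 with a pseudocount of 5, 0.0158 with array weights, and -0.055 to 0.0784 over the fits that left out 1 library, above 0 without scrambled vehicle replicate 3 (0.0491) or Bmal1 vehicle replicate 1. Leaving out each library in turn gave 3 to 5 members called for TGFb with scrambled siRNA and for TGFb with Bmal1 siRNA, 0 to 2 between siRNAs under vehicle and 1 to 3 in the interaction. Genes called then ranged from 1166 to 3260 for TGFb with Bmal1 siRNA, from 2 to 473 between siRNAs under vehicle and from 991 to 1871 in the interaction. Between siRNAs under vehicle, a pseudocount of 5 left 1 member called, and no filter left 0 members and 7 genes (members then had adjusted p = 0.0594 and 0.0833). There were 229 genes called with only the groups compared. Between siRNAs under TGFb that fit called 1542 genes. Without a filter 1 member was called in the interaction. With array weights, whose fit stopped before convergence, 5513 genes and 5 members were called for TGFb with Bmal1 siRNA, 1490 genes between siRNAs under vehicle, 4914 under TGFb, and 3723 genes and 5 members in the interaction. Replicate numbers were not taken to pair the samples. In no comparison of 2 groups made here did all 3 same-number pairs correlate over 0.1 in their deviations from group means. This rule leaves out the interaction, which uses all 4 groups. Over all groups r was -0.161 to 0.475 in 18 same-number pairs, 8 over 0.1, and -0.407 to 0.241 in 36 others, 7 over 0.1. All 3 pairs of scrambled TGFb and Bmal1 vehicle were over 0.1 (0.203 to 0.419), with 6 of 6 libraries closest to their own number. As sides of a contrast these groups meet only in the interaction, but all 12 libraries share 1 spread in every test of the main fit. Over all pairs of groups, in 20 of 36 cases a library correlated best with its own number in another group. With the replicate block 540 genes were called between siRNAs under vehicle, where the main fit called 74. Tef then passed the test for TGFb with Bmal1 siRNA (adjusted p = 0.019) and in the interaction (adjusted p = 0.0489). The cause of these shifts was not tested. Depth is unknown, so no limit for low genes can be given.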

Other observations

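Of list genes below the filter of 0.5 FPKM, Npas2, a paralogue of Clock, was lower with TGFb in the fit without a filter, by a log2 of -0.21 with scrambled siRNA (adjusted p = 0.0165) and -0.28 with Bmal1 siRNA (adjusted p = 0.0113). Its group means were 0.377 FPKM with scrambled siRNA and vehicle, 0.19 with scrambled siRNA and TGFb, 0.62 with Bmal1 siRNA and vehicle and 0.333 with both. Ppara, a fatty acid receptor gene described as a PAR bZIP target, was lower with TGFb and scrambled siRNA (-0.20, adjusted p = 0.00937) and differed by 0.02 with TGFb and Bmal1 siRNA (adjusted p = 0.808). Its interaction was 0.22 (adjusted p = 0.074) and did not pass the test.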
